A study of Mus musculus with 2 samples.

Results

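The 7 microRNA genes described here, Mir139, Mir149, Mir153, Mir488, Mir592, Mir218-1 and Mir218-2, lie inside protein-coding host genes that are known from neurons. They were chosen by gene symbol, and all 7 were found among the 2202 microRNA genes counted. The study sequenced small RNA under 30 bases from left cerebral cortex at 4 days after birth. The tissue came from female mice of strain B6CASTF1/J, first-generation hybrids of a C57BL/6 and a castaneus (CAST) parent. A single group of 2 libraries was sequenced, called replicate 1 and replicate 2 by their labels. The labels number them as separate animals, although a single donor record stands behind both. They are treated below as 2 animals with 1 library each. With no second group, conditions cannot be compared and no test was run. Means are given ± SD (n = 2), and that spread holds animal, dissection and library preparation together.

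A microRNA inside an intron is usually transcribed with its host, cut out of the primary transcript as a hairpin and trimmed to a product from the 5′ arm (5p), the 3′ arm (3p) or both. The product guides Argonaute to messenger RNAs, mainly through the seed, bases 2 to 8 from its 5′ end. The hosts span several neuronal roles. Pde2a encodes a phosphodiesterase that breaks down cyclic AMP and cyclic GMP, Gpc1 the cell-surface heparan sulfate proteoglycan glypican-1, Ptprn2 a membrane protein of dense-core vesicles and Astn1 an adhesion protein of neurons that migrate along glia. Grm8 encodes a metabotropic glutamate receptor, and Slit2 and Slit3 encode secreted axon guidance proteins that bind Robo receptors. Several of these hosts are also expressed outside neurons. Host messenger RNA was not measured here, so the word neuronal rests on background knowledge of the hosts.

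The products of the most abundant genes and of the genes that differed most between the animals are shown first, because every value below counts reads of such products. Sequences are from RefSeq on build GRCm38.p6, which has the coordinates of mm10. They run 5′ to 3′ with the seed in capitals.
miR-139-5p: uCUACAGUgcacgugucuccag
miR-139-3p: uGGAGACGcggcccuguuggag
miR-149-5p: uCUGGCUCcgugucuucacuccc
miR-149-3p: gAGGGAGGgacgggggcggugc
miR-153-5p: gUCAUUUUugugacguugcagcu
miR-153-3p: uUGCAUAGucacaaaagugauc
miR-592-5p: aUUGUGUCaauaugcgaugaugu
miR-592-3p: uCAUCACGuggugacgcaacau

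All 7 genes matched the RefSeq table, with hairpins of the same sequence and coordinates as in the counted annotation. They give 13 different mature products with 13 different seeds. Mir218-1 and Mir218-2 both give miR-218-5p, and no seed is shared between different products of the set. Outside it, miR-149-3p shares its seed with 3 mouse microRNAs, and miR-218-5p and miR-218-1-3p share theirs with 1 each. Of 1679 mature names in the table, 72.1% have a seed that no other name has. The seed of miR-153-3p is its own, but bases 2 to 7 are also those of miR-6335 and miR-448-3p. The gene of miR-448-3p, Mir448, lies in an intron of the serotonin receptor gene Htr2c. Such a match is not particular to miR-153-3p: miR-149-5p shares bases 2 to 7 with 4 other names and miR-139-3p with 1.

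The annotation bears out the intronic place of 6 genes and qualifies that of Mir592. Mir139 (ENSMUSG00000065446.1, chr7:101475376-101475443, plus strand) lies in intron 2 of 31 of Pde2a, 5927 bases before the next exon. The annotation also puts it in intron 3 of Gm45837, a longer protein-coding gene model over the same locus. Mir149 (ENSMUSG00000065470.1, chr1:92850378-92850443, plus strand) lies in the first of the 8 introns of Gpc1, the shortest host at 29.1 kb. Mir153 (ENSMUSG00000065538.1, chr12:117250817-117250885, plus strand) lies in intron 19 of 22 of Ptprn2, 765 kb from the start of a transcript of 791 kb. Mir488 (ENSMUSG00000070103.2, chr1:158505625-158505733, plus strand) lies in intron 5 of 22 of Astn1 and begins 155 bases after an exon.

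Mir592 (ENSMUSG00000076067.1, chr6:27936655-27936750, minus strand) lies in intron 3 of 10 of Grm8, which is 218685 bases long. It is intronic in 4 of the 5 Grm8 transcripts that span it and exonic in the other, a noncoding transcript. Mir218-1 (ENSMUSG00000065603.1, chr5:48223942-48224051, plus strand) and Mir218-2 (ENSMUSG00000065583.1, chr11:35616816-35616925, plus strand) hold the same place in their paralogous hosts, intron 14 of 35 in Slit2 and intron 14 of 35 in Slit3. All 7 lie on the strand of their host, none of the hosts holds another counted microRNA gene, and no read was counted on the strand opposite to any of the 7.

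**Figure D1:**
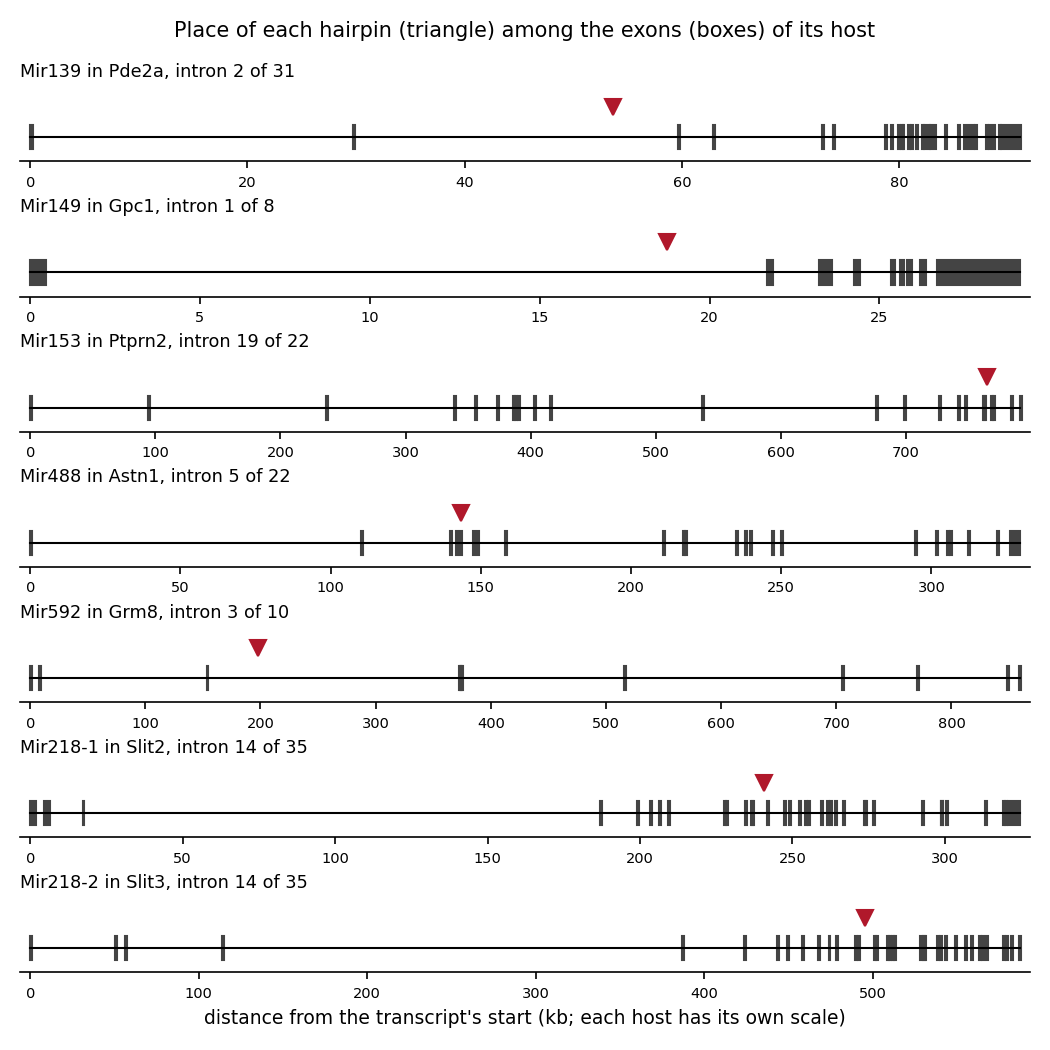
Each line is 1 host transcript, drawn from its start in kb on its own scale, with exons as boxes and the hairpin as a triangle. Mir149 lies in the first intron of Gpc1, Mir153 lies near the end of Ptprn2, and both Mir218 genes lie in intron 14 of 35 of their hosts.

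By mean level Mir139 and Mir149 ranked 8 and 10 among the counted microRNA genes, while the other 5 were counted far less often. Ranks hold among reads assigned to a single gene: reads that mapped to several places, 45.8% of replicate 1 and 41.0% of replicate 2, were assigned to none, so genes with near-identical copies such as Mir124a-1 (2.51 CPM) may be undercounted. Levels are given as CPM, counts per 1000000 counts on microRNA genes. A read covers a whole mature product, so no scaling by hairpin length was applied. Together the 7 genes held 5.09% of microRNA counts in replicate 1 (95% Wilson interval 5.07 to 5.12) and 3.96% in replicate 2 (3.94 to 3.98), a mean of 4.53% ± 0.802. Mir139 and Mir149 made up 98.3% ± 0.448 of that sum. All 7 were detected, which means a level of at least 2 CPM in each library. Of all microRNA genes 20.4% were detected, as were 25.3% of the 722 genes in introns of protein-coding hosts on the same strand. The median percentile rank of the 7 by mean level was 90.6, where the median over all genes was 32.0, the rank shared by genes with no read.

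Mir139, which is known to be abundant in brain, had 100745 counts in replicate 1 and 52361 in replicate 2. These are 28335 CPM (2.83% of counts, 2.82 to 2.85) and 18965 CPM (1.90%, 1.88 to 1.91), so that replicate 1 was higher and the mean was 23650 ± 6626 CPM. Its rank was 6 in replicate 1 and 13 in replicate 2. In the order of mean levels it stood between Mir744 (24486 ± 1190 CPM) and the imprinted Mir127 (22717 ± 3277 CPM), neither of which differed from it beyond the spread of the animals.

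Mir149 was the steadier of the pair. It had 77958 counts in replicate 1 and 54831 in replicate 2, or 21926 CPM (2.19%, 2.18 to 2.21) and 19859 CPM (1.99%, 1.97 to 2.00). Its mean was 20893 ± 1462 CPM, at rank 10, beside Mirlet7e at 20244 ± 1513 CPM. Among genes in introns of protein-coding hosts, Mir139 and Mir149 ranked 3 and 4 of 183 detected by mean level. In replicate 1 Mir139 lay above Mir744 (25328 CPM), and in replicate 2 it lay below Mirlet7e (19174 CPM). In this intron class the same limit holds for genes that have copies. The members of the set that fall in that class held 14.8% of its counts in replicate 1 and 11.3% in replicate 2.

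**Figure D2:**
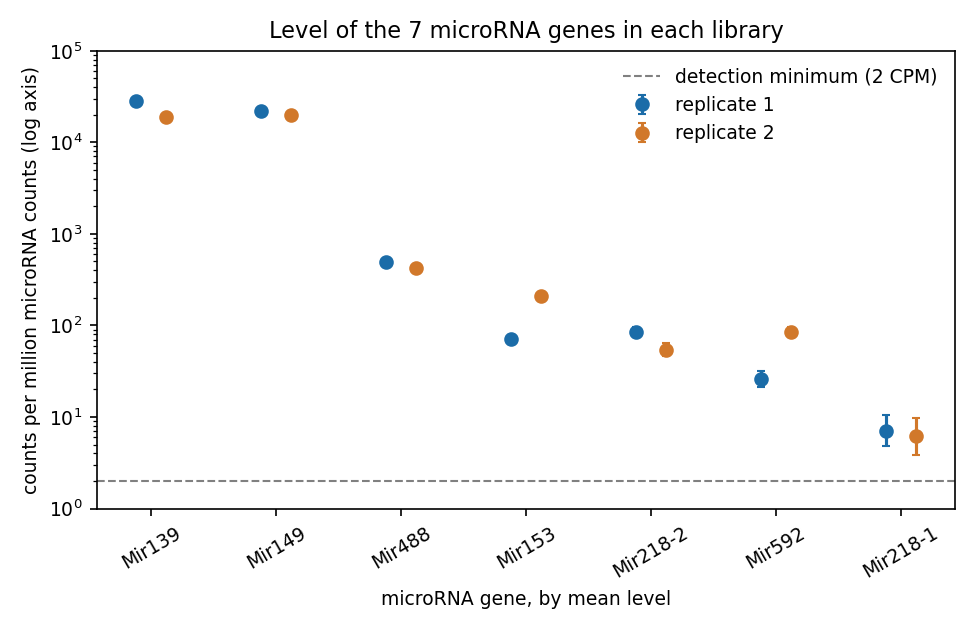
Points are CPM on a log axis in each library, with 95% Wilson intervals (most are smaller than the point), and genes are ordered by mean level. All 14 values lie above the detection minimum of 2 CPM, replicate 2 is the higher library for Mir153 and Mir592, and replicate 1 is the higher for the other 5.

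Among the 7 genes, Mir488 of Astn1 stood apart from those just above and below it in mean level. Its 1762 and 1180 counts gave 496 CPM in replicate 1 and 427 CPM in replicate 2, with a mean of 461 ± 48.2 CPM at rank 139. In both libraries it lay below Mir149, by 44.2-fold (exact interval 42.2 to 46.4) in replicate 1 and 46.5-fold (43.9 to 49.3) in replicate 2. It lay above Mir153 by 7.05-fold (6.17 to 8.08) and 2.03-fold (1.83 to 2.24). The gap from Mir488 to Mir149 was thus alike in both animals, while the gap to Mir153 differed. Its neighbours in the order of levels were Mirlet7a-1 (482 ± 90.4 CPM) and Mir101b (452 ± 134 CPM).

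Mir153 of Ptprn2, a microRNA reported to act on synaptic and vesicle genes, was low beside Mir139 and Mir149 and uneven between the libraries. It had 250 counts in replicate 1 and 582 in replicate 2, which are 70.3 CPM (62.1 to 79.6) and 211 CPM (194 to 229). The libraries did not overlap within counting error, and the mean was 141 ± 99.3 CPM at rank 207, beside Mir1843a (146 ± 10.9 CPM) and Mir34a (140 ± 16.1 CPM).

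Mir592 of Grm8 showed the same imbalance at a lower level. It had 93 counts in replicate 1 and 233 in replicate 2, or 26.2 CPM (21.4 to 32.0) and 84.4 CPM (74.2 to 95.9), with a mean of 55.3 ± 41.2 CPM at rank 251. It stood between Mir8112 (59.2 ± 0.237 CPM) and Mir3093 (54.5 ± 11.0 CPM), whose libraries were far closer to each other. Replicate 2 was thus the higher library for both Mir153 and Mir592.

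The 2 Mir218 genes, whose shared product is known from motor neurons and as a regulator of Robo receptors, need their sequences beside their counts. The longest stretch that both hairpins share is 22 bases. It is shown with the mature miR-218-5p in capitals, and both 3p products are shown with their longest shared stretch of 10 bases in capitals.
Shared stretch: UUGUGCUUGAUCUAACCAUGUg
miR-218-1-3p: aaacaugguuccGUCAAGCACC
miR-218-2-3p: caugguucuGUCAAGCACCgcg

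The whole of miR-218-5p, with 1 base more, is identical in Slit2 and Slit3. A read inside that stretch fits both genes, and reads that mapped to several places were assigned to no gene. The share of such reads that came from miR-218 is not given by the tables. The counts of both genes can therefore miss miR-218-5p. Reads of the 3p products, or 5p reads longer than the shared stretch, could tell the hairpins apart, and the tables do not split counts by arm or read length. The other 5 genes share no stretch of 22 bases with another counted hairpin. Over all 2202 hairpins 46.5% share one, and over the 450 detected genes 14.9% do.

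With that limit, Mir218-2 of Slit3 was counted more often than Mir218-1 of Slit2 in both animals. Mir218-2 had 304 counts in replicate 1 and 150 in replicate 2, or 85.5 CPM (76.4 to 95.7) and 54.3 CPM (46.3 to 63.7), a mean of 69.92 ± 22.04 CPM at rank 244. Mir218-1 had 25 and 17 counts, or 7.03 CPM (4.76 to 10.4) and 6.16 CPM (3.84 to 9.86), a mean of 6.59 ± 0.618 CPM at rank 367. The ratio of Mir218-2 to Mir218-1 was 12.2 (8.08 to 19.1) in replicate 1 and 8.82 (5.33 to 15.5) in replicate 2. Mir218-2 had Mir181a-2 (70.7 ± 40.0 CPM) and Mir32 (69.0 ± 3.39 CPM) as neighbours in the order of levels, and Mir218-1 had Mir6990 (6.61 ± 2.18 CPM) and Mir547 (6.47 ± 1.60 CPM). The intervals of the ratio overlap, so a difference between the animals in this ratio was not detectable at this depth.

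**Figure D3:**
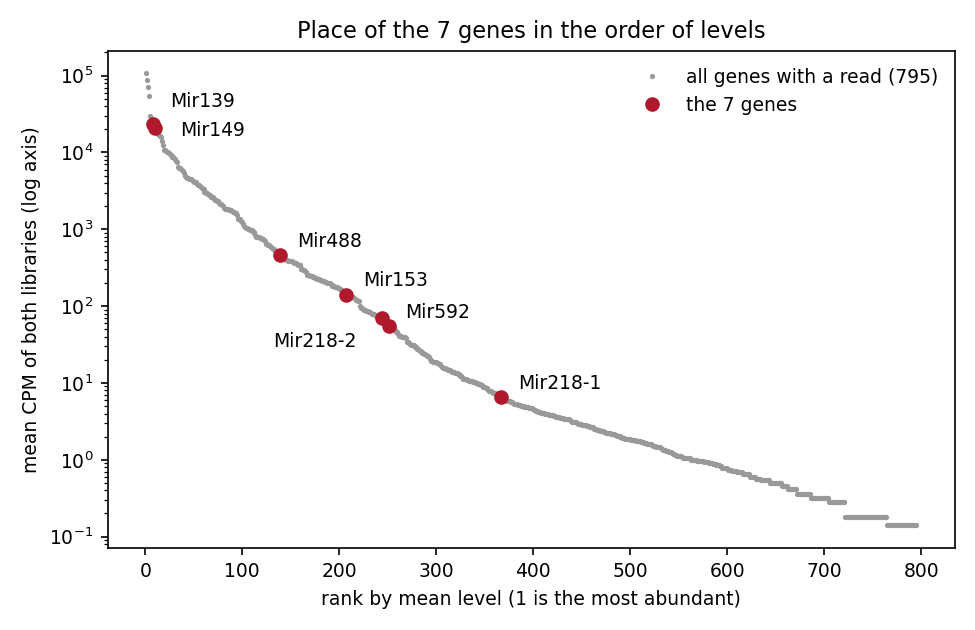
Mean CPM of both libraries on a log axis against rank for the 795 genes with a read, with the 7 genes in red. Mir139 and Mir149 sit at ranks 8 and 10, Mir488 at 139, Mir153, Mir218-2 and Mir592 between 207 and 251, and Mir218-1 at 367.

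The order of the 7 genes was not the same in both animals. Of 21 pairs, 18 had the same order in both libraries, and 17 had CPM ranges that did not overlap. Mean levels ran from 6.59 to 23650 CPM, and the same shares were not computed over pairs of all microRNA genes. These counts therefore show no trait particular to the 7. The 3 pairs that changed order were neighbours in the order of mean levels. Mir139 exceeded Mir149 by 1.29-fold (1.28 to 1.30) in replicate 1, while their ratio was 0.955 (0.944 to 0.966) in replicate 2. Mir153 and Mir218-2 had a ratio of 0.822 (0.693 to 0.975) in replicate 1 and 3.88 (3.24 to 4.67) in replicate 2. For Mir218-2 over Mir592 it was 3.27 (2.58 to 4.17) and 0.644 (0.521 to 0.794). Mir139 against Mir149, Mir153 against Mir218-2 and Mir218-2 against Mir592 thus did not differ beyond the spread of the animals, whereas Mir149, Mir488 and Mir153 followed each other without overlap.

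Between the animals, 5 genes were lower in replicate 2 and Mir153 and Mir592 were higher. The log2 ratios below set replicate 2 over replicate 1 after TMM scaling, which sets library sizes from a trimmed mean of log ratios between libraries, and carry exact counting intervals. Mir153 had a log2 ratio of 1.56 (1.35 to 1.79), or 2.96-fold, and Mir592 one of 1.67 (1.32 to 2.04), or 3.18-fold. Their ratio to each other was 2.69 (2.11 to 3.45) in replicate 1 and 2.50 (2.14 to 2.92) in replicate 2, so the pair kept its proportion within counting error while both levels differed about 3-fold.

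The other 5 genes lay nearer to an equal level. Mir139 had a log2 ratio of -0.60 (-0.61 to -0.58), Mir218-2 one of -0.67 (-0.96 to -0.38), Mir488 one of -0.23 (-0.34 to -0.12) and Mir149 one of -0.16 (-0.18 to -0.14). For Mir218-1 it was -0.20 with an interval that spanned 0 (-1.19 to 0.74), so no difference was detectable at its depth. In 2 further pairs with 100 or more counts per gene, the ratio within a library overlapped between the animals. Mir139 over Mir218-2 stood at 331 (296 to 372) and 349 (297 to 413), and Mir149 over Mir488 at the values given above. Of all 21 pairs 7 overlapped in this way, and 4 of these involve Mir218-1, whose intervals are the widest. The share over pairs of all microRNA genes was not computed for this count either.

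Over both libraries 6 of the 7 genes reached 100 counts, as did 308 microRNA genes in all. Of the 6, replicate 2 exceeded replicate 1 by 2-fold or more in 2, Mir153 and Mir592, against 4.87% of the 308. The reverse held for 0 of the 6 and for 11.0% of the 308. Of the 308 genes, 5.84% had ratios further from 1 than Mir153 and 5.19% further than Mir592, against 28.9% for Mir139 and 74.0% for Mir149. The median distance from an equal level was 0.63 on the log2 scale over the 6 genes, 0.33 over the 308 and 0.29 over the 109 of them in introns of protein-coding hosts. With 1 library per animal these differences describe 2 animals, and in bulk tissue fewer cells of a type and less RNA per cell cannot be told apart.

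**Figure D4:**
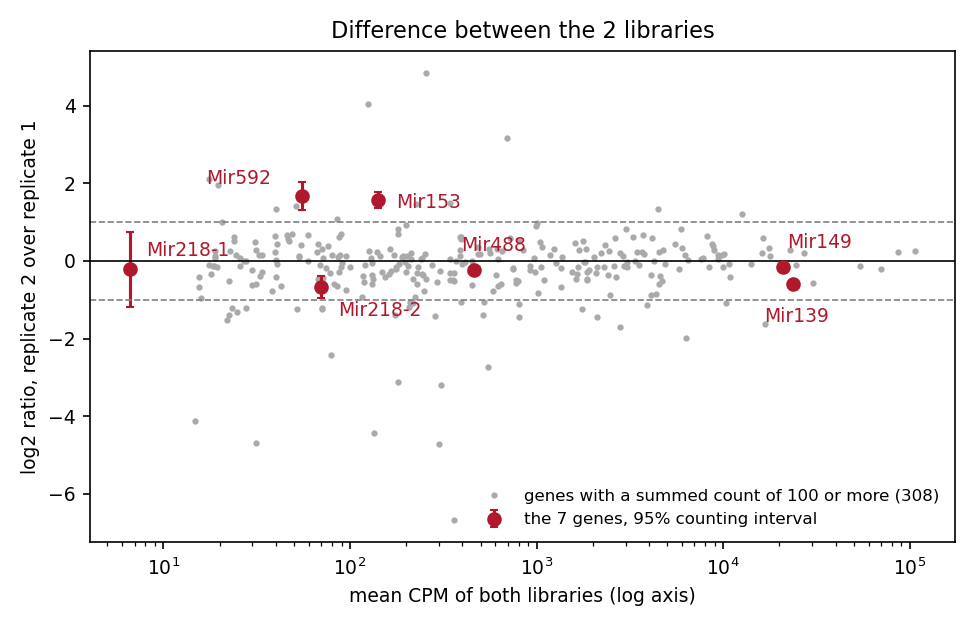
The log2 ratio of replicate 2 over replicate 1 is plotted against mean CPM on a log axis, for the 308 genes that reached 100 counts over both libraries in grey and the 7 genes in red with 95% counting intervals. Dashed lines mark 2-fold, and Mir153 and Mir592 lie above the upper line at 1.56 and 1.67.

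Markers of other cells also differed between the libraries, apart from those of microglia and leukocytes, whose sums were close. For red cell markers, 3 of 3 detected, the sum was 60.2 CPM in replicate 1 against 550 CPM in replicate 2. Mir451a carried that gap with 16.9 and 491 CPM, while Mir486 was at 36.8 and 30.4 CPM. Epithelial markers of the Mir200 family, 4 of 5 detected, summed to 1930 and 93.8 CPM. Vessel markers (3 of 3) came to 16319 and 23814 CPM, with Mir145a at 140 and 97.8 CPM against the direction of the sum, and those of microglia and leukocytes (5 of 5) to 1104 and 1185 CPM, with Mir150 and Mir223 lower and the other 3 higher in replicate 2. Ptprn2 is also expressed in endocrine cells, whose single marker here, Mir375, had 294 and 139 CPM. The part of these cells in any ratio of the 7 genes was not tested.

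The tissue label was checked in the same way. Of 12 brain microRNA genes, 8 were detected, with sums of 42459 CPM in replicate 1 and 31808 CPM in replicate 2. Mir137 led by mean level with 14397 and 13672 CPM, and Mir128-1 had 14073 and 6719 CPM. Among those detected, Mir138-1, Mir138-2 and Mir9-3 were higher in replicate 2, against the direction of the sum, and the others were lower. The 4 below the minimum were Mir9-2 and copies of Mir124a, which have near-identical copies elsewhere. Markers of hindbrain and spinal cord, where miR-218 is known from motor neurons, were low at 70.3 and 79.3 CPM with 2 of 6 detected and Mir196a-1 at 0. Those of striated muscle stood at 35.2 and 14.1 CPM, with 5 of 6 at 0 and the reads coming from Mir206.

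A second list of 19 microRNA genes within hosts known from neurons gave the 7 genes their setting. The word neuronal rests on background knowledge here too, and expression of these hosts outside neurons was not assessed. In it 18 were detected and Mir1912 was not, with 3 counts in replicate 1 and 0 in replicate 2. Its 4 highest genes were Mir128-1 of R3hdm1 (10396 ± 5201 CPM), Mir708 of the teneurin gene Tenm4 (4744 ± 705 CPM), Mir128-2 of Arpp21 (4367 ± 1753 CPM) and Mir330, which overlaps an exon of Eml2 (3383 ± 6.28 CPM). Mir139 and Mir149 lay above all 19 in both libraries. Of these, Mir128-1, Mir128-2 and Mir708 have a stretch of 22 bases in common with another counted hairpin, so some of their reads may have been assigned to no gene.

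The 19 genes held 3.64% of counts in replicate 1 and 2.64% in replicate 2, a mean of 3.14% ± 0.706. Their median level was 565 CPM, against 141 CPM for the 7 genes. Among the 16 that reached 100 counts, replicate 1 was the higher by 2-fold or more in 4 and replicate 2 in 0, against 11.0% and 4.87% of all 308 genes. The 4 were Mir128-1 and, from the single host Htr2c, Mir1298, Mir448 and Mir1264, so they do not stand for 4 separate hosts. The median log2 ratio of the 16 was -0.45, where the 6 genes of the set had a median of -0.20 and all 308 genes -0.09. The part of cells other than neurons in the ratios of the 16 was not tested. Mir448, which shares bases 2 to 7 of its 3p product with miR-153-3p, had 72.6 CPM in replicate 1 and 31.1 CPM in replicate 2. Its log2 ratio of -1.23 (-1.61 to -0.88) was opposite in sign to that of Mir153.

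**Figure D5:**
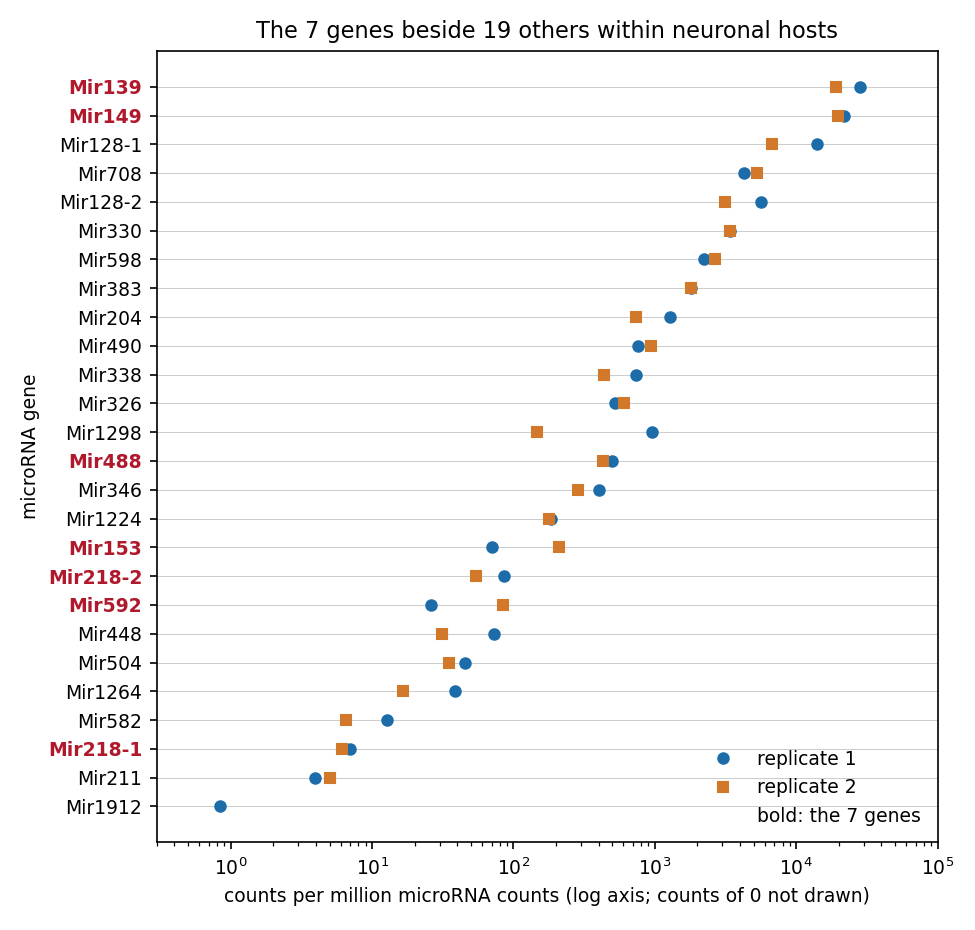
CPM on a log axis in replicate 1 (circles) and replicate 2 (squares) for the 7 genes (bold red names) and 19 other microRNA genes within hosts known from neurons, ordered by mean level. Mir139 and Mir149 are at the top, and Mir153 and Mir592 have the largest gaps with replicate 2 on the higher side.

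The hairpins differed in composition as well as in level. GC content ran from 42.0% in Mir153 to 68.2% in Mir149, with a median of 45.5% over the 7 and 50.8% over all 2202 hairpins. The predicted folding energy per base was lowest, hence the fold most stable, for Mir149 at -0.56 kcal/mol and Mir139 at -0.52 kcal/mol, which stood at percentiles 93.5 and 90.3 of stability among all hairpins. Mir218-1 had the least stable fold of the 7 at -0.33 kcal/mol and percentile 38.7, and Mir218-2 stood at -0.38 kcal/mol and percentile 55.9. Mir139, Mir149 and Mir153 have hairpins of 66 to 69 bases and the other 4 of 96 to 110. These properties are given as a description of 7 hairpins, and no relation to the level was tested.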

How the data were processed

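The authors deposited 1 table of whole-number read counts per microRNA gene for each library, without pooling or normalization. The build was mm10 with GENCODE M21, per the notes deposited with the libraries. How reads were trimmed, aligned and counted is not given in the sources used here. The 3 unnamed value columns were read from layout and values as either strand, annotated strand and opposite strand. The annotated strand was used.

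All 2202 gene IDs matched M21. Library sizes leave out the totals that belong to no gene: multimapped reads (45.8% and 41.0%), unmapped reads (19.3% and 25.6%) and reads outside microRNA genes (4.50% and 5.63%). The counts on microRNA genes were 3555469 (replicate 1) and 2761003 (replicate 2). Hence 1 CPM is 3.56 and 2.76 counts, and 3 counts, the most that 0 allows, are 0.844 and 1.09 CPM. Intervals and limits cover counting error only, since amplified reads are not independent molecules. Counts add both arms of a hairpin. Adapter ligation, which favours some sequences, was not corrected for, and how CAST variants act on mapping to a C57BL/6 reference was not tested.

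Ratios used TMM factors from edgeR 4.0.16 with 0.5 added to each count. The ratio and its interval were run on simulated counts without TMM factors and with counting error alone. That run cannot test the scaling or the spread between animals. RLE factors were from DESeq2 1.42.0 and folding energies from RNAfold 2.7.2. Host introns were taken from the principal transcript in the annotation that spans the hairpin. A chi-square statistic of 322 per degree of freedom over 525 genes showed that the tables do not hold the same library.

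The 7 genes, the lists and the markers were chosen with earlier results of these data known. Named genes were the 7, their neighbours in the order of levels, the 4 highest members of the list of 19 and any without detection, and markers by sums. Genes named beside these, such as Mir448, were chosen after their values were seen.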

Additional observations from a re-analysis of the deposited data

How the results depend on the processing

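With all reads of the library as the total, the summed share of the 7 genes was 1.33% ± 0.318 in place of 4.53%, and that scaling moved the median log2 ratio of all genes by -0.11. Among genes with a read in either library the median percentile rank was 74.1 in place of 90.6. At a fold of 1.5 in place of 2, 4 of 6 genes differed between the animals, as did 31.8% of 308 genes. Mir139 was among the 4 only narrowly, at a log2 ratio of -0.60. It fell short of 1.5-fold with library sizes over microRNA genes (-0.579) and with TMM factors over genes that reached 100 counts (-0.566). Without replicate 1 or 2 in turn, the share ranged from 3.96% to 5.09% and the rank from 89.6 to 92.0, and 7 genes stayed detected in each. At 10 CPM in both libraries 6 of the 7 remained. Under 5 other choices of scaling, strand and added count, and with TMM factors over genes that reached 100 counts (chosen after seeing the data), no log2 ratio of the 7 genes changed sign. Mir153 ran from 1.45 to 1.60 and Mir592 from 1.55 to 1.70. No paired analysis was possible because there is 1 group. Depth limits Mir218-1, with 25 and 17 counts.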
